A study of Mus musculus with 8 samples.

Results

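The variable segments of the alpha and beta chains of the T cell receptor were measured in cells sorted as CD8+ lymphocytes from mouse melanomas. The members are all genes that the GENCODE M21 annotation classes as T cell receptor V genes and whose symbol starts with Trav or Trbv. They number 130 of the 55487 genes in the files, 108 of them Trav and 22 Trbv. The other 14 V genes of the annotation, of the gamma and delta loci or with other symbols, were not members. C57BL/6 mice carried subcutaneous B16F10 tumors, a pigmented melanoma line, and treatment started 7 to 9 days after injection at a tumor volume of about 50 mm3. The tacrolimus group (4 samples, replicates 1 to 4) received 3 mg/kg intraperitoneally every 5 days, and the vehicle group (4 samples, replicates 1 to 4) received vehicle every 5 days. Harvest followed 6 days after treatment began, and each sample gave 1 library. The labels give no age, sex or batch and do not say whether each sample came from 1 mouse, so p-values measure the spread between these samples. All tumors came from 1 cell line.

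A T cell receptor joins an alpha and a beta chain. In the thymus each developing T cell cuts and joins 1 variable (V) segment to a joining (J) segment, with a diversity (D) segment between them in the beta chain. The joined exon is then spliced to a constant segment, Trac for alpha and Trbc1 or Trbc2 for beta. All progeny of a T cell carry the same V segments, so a clone that has expanded in a tumor raises the RNA of its own segments. Tacrolimus (FK506) inhibits calcineurin, the phosphatase that acts on NFAT factors downstream of this receptor.

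The deposited values are FPKM, which scale the fragments of a gene to its length and to the depth of the library. Low FPKM values fell on whole multiples of what 1 fragment is worth, from which an estimated 15200000 to 19000000 fragments per library were obtained. In a gene of 340 bases 1 fragment was worth 0.548 to 0.833 FPKM, depending on the library, so at that length a segment below 1 FPKM rests on about 1 fragment; at 560 bases 1 fragment was worth 0.167 to 0.214 FPKM. The 9 genes of the receptor complex and CD8 summed to 49.9 to 416 FPKM in the tacrolimus libraries and 433 to 1842 in the vehicle libraries. The 5 melanoma genes, Dct, Pmel, Tyrp1, Mlana and Tyr, summed to 21548 to 26367 FPKM and 18031 to 32704. Melanoma transcripts were thus abundant in every sorted sample, and the share of RNA from each cell type was not measured. The 7 macrophage genes listed, all detected in every library, summed to 213 to 493 FPKM with tacrolimus and 387 to 1503 with vehicle. Of these, 6 of 7 macrophage genes were lower with tacrolimus at an unadjusted p under 0.05 in limma, beside 15.8% of all 13032 genes tested. None of the 7 passed adjustment, and all overlapped between the groups. The part of macrophage or tumor RNA in the results on segments was not tested. Libraries of the extremes were vehicle replicate 1, with the most receptor RNA, and tacrolimus replicate 2, with the least. Their weight is given beside the results.

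The 3′ ends of the beta segments on which the results turn show what the segments share and where they differ. These are the last 60 bases of the annotated coding transcripts, read from GENCODE M21 (GRCm38), with the letters TGTGC in capitals. They spell the conserved cysteine codon at the end of the framework and the first bases of the stretch that is joined to D and J.
Trbv31: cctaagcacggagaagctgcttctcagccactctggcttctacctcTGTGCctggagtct
Trbv29: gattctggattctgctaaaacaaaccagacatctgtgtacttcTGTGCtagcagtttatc
Trbv20: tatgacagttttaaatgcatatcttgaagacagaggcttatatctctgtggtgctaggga
Trbv16: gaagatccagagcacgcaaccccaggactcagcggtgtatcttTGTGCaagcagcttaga
Trbv14: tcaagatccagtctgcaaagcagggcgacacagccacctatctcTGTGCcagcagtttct
Trbv19: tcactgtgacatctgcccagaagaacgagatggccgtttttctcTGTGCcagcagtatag
Trbv12-2: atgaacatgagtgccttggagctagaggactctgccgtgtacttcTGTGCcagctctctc
Trbv1: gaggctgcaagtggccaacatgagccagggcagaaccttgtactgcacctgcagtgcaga

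Of the 8 beta ends, those of Trbv20 and Trbv1 do not hold these letters. On the transcript strand, TGTGC stood in the last 30 bases of 105 of the 130 members (80.77%) and in 3.1% of all 141767 annotated transcripts. The motif was as frequent among the 18 segments that no library detected (15 of 18). The Trbv31 stretch lies at chr6:41557693-41557752 on the minus strand, and the other 21 Trbv segments lie on the plus strand. All Trbv segments together, Trbv31 included, span chr6:40891229-41558452. Trbv31 is known as the segment downstream of the constant genes, which is joined by inversion. The 108 Trav segments all lie on the plus strand of chr14:52427928-53977678.

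The alpha segments differ from the beta segments in how much they resemble each other. The C57BL/6 alpha locus holds duplicated blocks, and 34 Trav symbols carry the letter d and 28 the letter n for such copies. The 5 members of the Trav14 subgroup printed here show the scale of the differences over their last 90 bases. Capitals mark bases that differ from Trav14n-2, and positions count from 1 at the first printed base.
Trav14n-2: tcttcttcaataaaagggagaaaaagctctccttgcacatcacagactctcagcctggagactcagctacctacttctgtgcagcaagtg
Trav14d-2: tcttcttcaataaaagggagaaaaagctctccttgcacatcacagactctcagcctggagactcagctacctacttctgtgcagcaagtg
Trav14-2: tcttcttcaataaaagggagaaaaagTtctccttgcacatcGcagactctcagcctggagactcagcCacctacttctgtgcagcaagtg
Trav14n-3: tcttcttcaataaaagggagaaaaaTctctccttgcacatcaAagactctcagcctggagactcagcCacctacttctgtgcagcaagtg
Trav14d-3-dv8: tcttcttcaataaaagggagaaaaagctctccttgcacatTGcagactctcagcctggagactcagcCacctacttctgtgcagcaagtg

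Trav14n-2 and Trav14d-2 are identical over their whole transcripts, and the other 3 differ from them by 3 bases each in this stretch. The substitutions are C27T, A42G and T68C in Trav14-2, G26T, C43A and T68C in Trav14n-3, and C41T, A42G and T68C in Trav14d-3-dv8. Among 424 pairs of segments within a subgroup, 15 pairs had identical transcripts, and the 130 segments amount to 115 distinct sequences. In all 14 such pairs that were detected, both copies had the same FPKM in all 8 libraries, so fragments of these copies were divided evenly and the value of a copy is uncertain. Values of segments that differ by few bases, such as these Trav14 members, can likewise have been split by the authors' counting.

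Variable segments of both chains were lower in the tacrolimus libraries. The Trbv segments summed to 68.7, 7.65, 35.5 and 32.3 FPKM in tacrolimus replicates 1 to 4 and to 388, 87.6, 136 and 117 FPKM in vehicle replicates 1 to 4. Every vehicle library lay above every tacrolimus library, 182 ± 139 against 36.0 ± 25.1 FPKM (mean ± SD, n = 4 each). The difference in mean log2 sums was -2.45, a level 5.48-fold higher with vehicle. Without vehicle replicate 1 it was -2.0 and without tacrolimus replicate 2 it was -1.83, and after median-of-ratios scaling it was -2.23 and the groups overlapped.

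The Trav segments summed to 67.7, 8.05, 12.2 and 39.6 FPKM in the tacrolimus libraries and 252, 57.3, 124 and 107 FPKM in the vehicle libraries. Here the groups overlapped by 1 pair, since tacrolimus replicate 1 lay above vehicle replicate 2. The means were 31.9 ± 27.7 and 135 ± 83.0 FPKM (SD, n = 4 each), a difference in mean log2 sums of -2.38. In these bulk samples fewer T cells and less receptor RNA per T cell cannot be told apart.

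The constant segments were lower to a similar degree, so that relative to them little of the difference was left. Trac was at 40.5, 4.10, 16.4 and 22.4 FPKM with tacrolimus and 152, 51.4, 61.4 and 66.2 FPKM with vehicle. Trbc1 and Trbc2 summed to 138, 14.9, 85.9 and 94.2 FPKM and to 788, 161, 195 and 195 FPKM. The ratio of summed Trav to Trac was 1.54 ± 0.54 with tacrolimus and 1.61 ± 0.37 with vehicle (SD, n = 4 each). The ratio of summed Trbv to the beta constant segments was 0.44 ± 0.08 and 0.58 ± 0.09. Both ratios overlapped between the groups, and on the log2 scale they differed by -0.12 for alpha and -0.41 for beta.

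Fewer segments were detected, that is above 0 FPKM, in the tacrolimus libraries. Of the 22 Trbv segments, 13, 10, 14 and 10 were detected in tacrolimus replicates 1 to 4 and 19, 16, 20 and 19 in vehicle replicates 1 to 4. The groups did not overlap (11.8 ± 2.06 against 18.5 ± 1.73, SD, n = 4 each). Of the 108 Trav segments, 37, 15, 23 and 26 were detected with tacrolimus and 59, 32, 52 and 51 with vehicle. The alpha counts overlapped, 25.2 ± 9.11 against 48.5 ± 11.6, and with identical copies counted once 19.5 ± 8.39 against 39.25 ± 10.5. A pool of fewer fragments shows fewer segments, so the counts were also set at equal fragments.

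**Figure D1:**
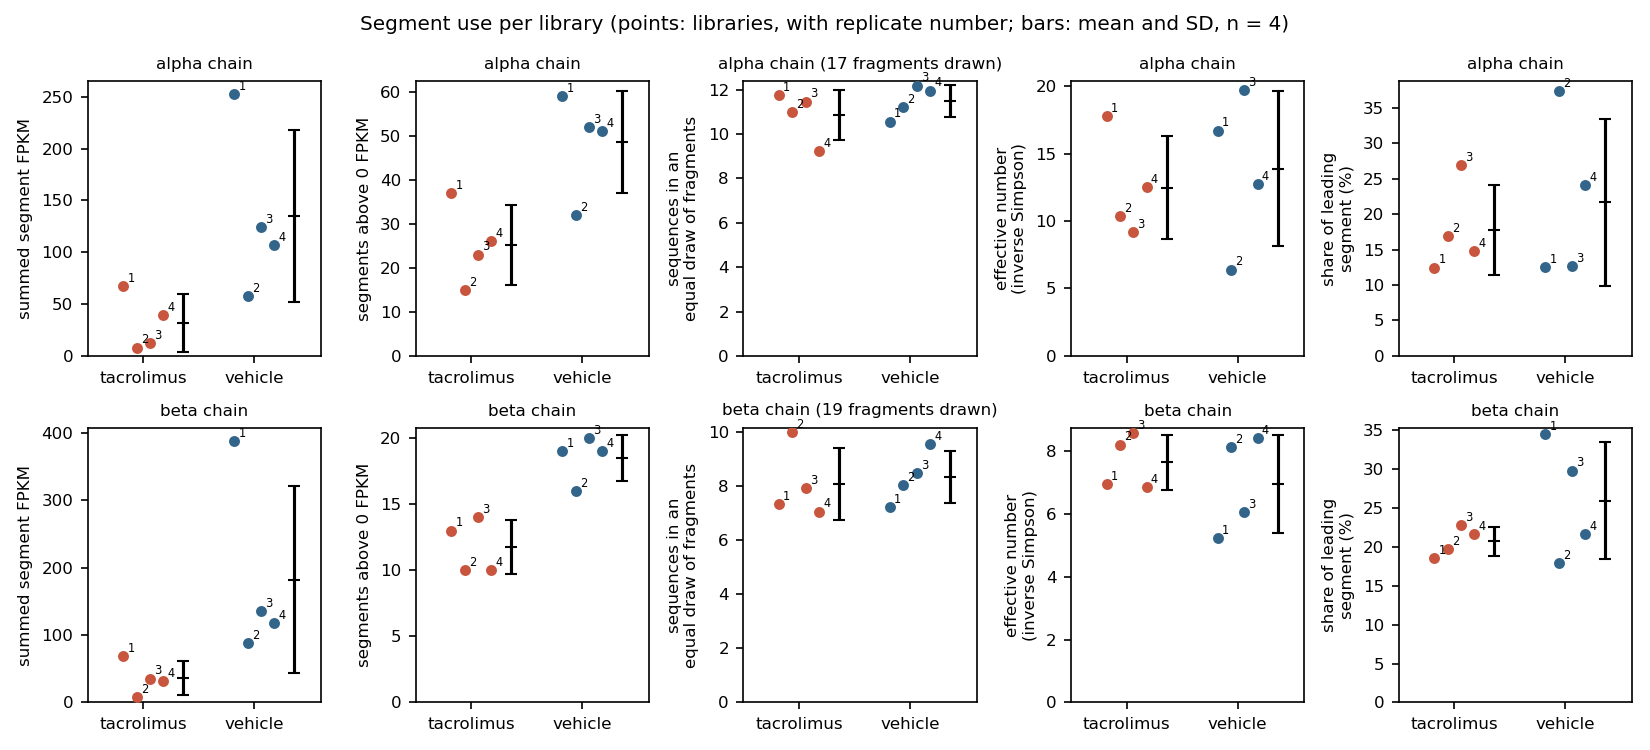
Measures of segment use per library for the alpha chain (top) and beta chain (bottom): summed FPKM, segments above 0 FPKM, distinct sequences expected in an equal draw of fragments, effective number, and share of the leading segment in percent. Points are libraries with their replicate number and bars are mean and SD (n = 4); the 2 left panels of the beta chain show groups that do not overlap, and the other panels show overlap.

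The segments rested on few fragments, above all with tacrolimus. An estimated 164, 19, 132 and 89 fragments fell on Trbv segments in tacrolimus replicates 1 to 4, and 901, 197, 309 and 245 in vehicle replicates 1 to 4. On Trav segments the estimates were 125, 16, 29 and 78 with tacrolimus and 533, 90, 245 and 208 with vehicle. Equal draws are therefore limited by tacrolimus replicate 2. For the draws, the fragments of each distinct sequence were rounded to whole numbers, so their totals differ slightly from the estimates above.

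In a draw of 19 Trbv fragments, 7.34, 10.0, 7.93 and 7.07 distinct sequences were expected with tacrolimus. The same draw gave 7.24, 8.05, 8.50 and 9.56 with vehicle, so the groups overlapped and their means, 8.09 ± 1.33 and 8.34 ± 0.97, differed by less than 1 SD. A draw of 17 Trav fragments gave 10.9 ± 1.12 and 11.5 ± 0.74 sequences (SD, n = 4 each). With tacrolimus replicate 2 left out, the beta draw can be 91 fragments. It then gave 11.7, 13 and 10.0 sequences in tacrolimus replicates 1, 3 and 4 and 12.8, 13.4, 16.0 and 16.6 in the vehicle libraries, with an overlap of tacrolimus replicate 3 and vehicle replicate 1 only. At 91 fragments the means were 11.5 ± 1.49 (n = 3) and 14.7 ± 1.90 (n = 4). The alpha draw of 30 fragments over the same 7 libraries gave 15.2 ± 2.68 and 16.5 ± 1.33. The difference in mean beta sequences was -0.25 at 19 fragments with all 8 libraries, -0.89 at 19 fragments without tacrolimus replicate 2, and -3.16 at 91 fragments without it. As detected, the counts differed by -6.75.

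**Figure D2:**
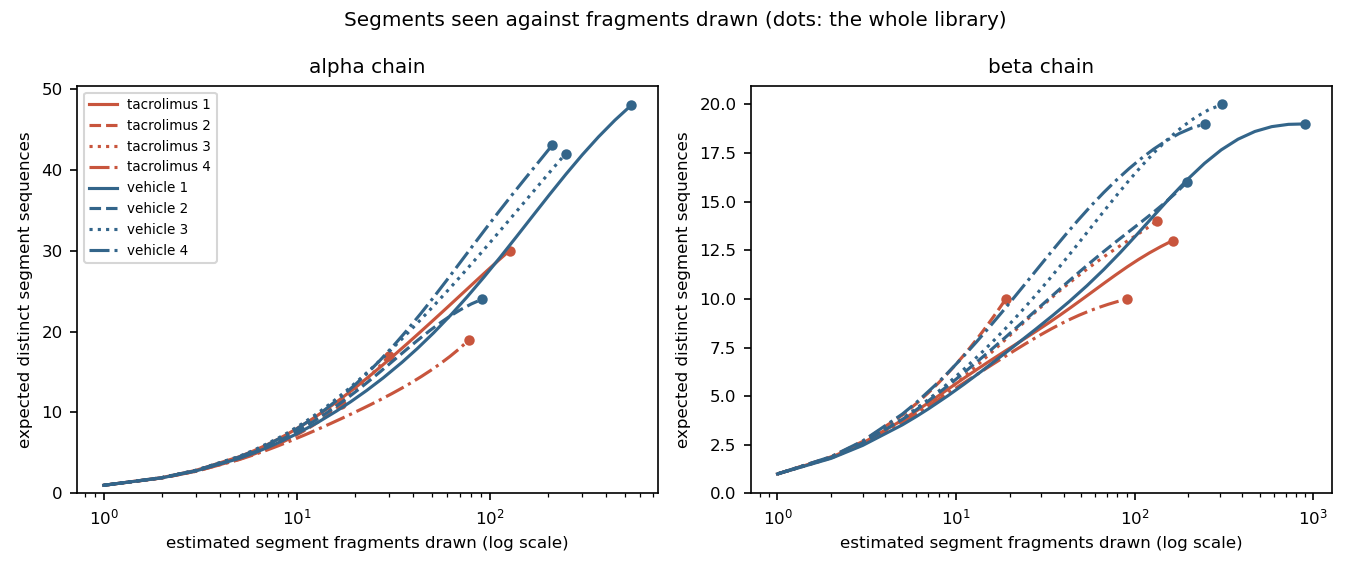
Distinct segment sequences expected (vertical axis) against the number of estimated segment fragments drawn (horizontal axis, log scale), alpha chain left and beta chain right, with 1 line per library and a dot at the whole library. Most tacrolimus dots lie to the lower left of the vehicle dots; among the beta lines tacrolimus replicates 2 and 4 end lowest, at 10 sequences.

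Over all libraries, 112 of the 130 segments were detected at least once, and 18 Trav segments were at 0 in all 8. Segments seen only in vehicle libraries numbered 38 (33 Trav, 5 Trbv), those seen only in tacrolimus libraries 9 (9 Trav, 0 Trbv), and 65 were seen in both. The group mean was lower with tacrolimus for 94 of the 112 segments and higher for 18, and of the 22 Trbv segments Trbv1 alone had the higher mean. Only 11 segments, 5 Trav and 6 Trbv, were detected in all 8 libraries. The 5 Trav were Trav14d-3-dv8, the identical copies Trav6d-7 and Trav6n-7, and the identical copies Trav14d-2 and Trav14n-2.

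A minimum of 1 FPKM, to be reached in 4 libraries, left 30 segments (14 Trav, 16 Trbv) among 13032 genes tested with limma. Identical copies among them are Trav12d-2 and Trav12n-2, Trav14d-2 and Trav14n-2, Trav3d-3 and Trav3n-3, and Trav6d-7 and Trav6n-7. Both copies of a pair enter every count and median over the 30, so these hold fewer independent values. In 26 of these 30, more vehicle than tacrolimus libraries reached 1 FPKM, so most segments passed through the group in which they were high, and their counts support nothing by themselves. None of the 30 passed an adjusted p of 0.05, and none of the 13032 genes did (0%). The smallest adjusted p of a segment was 0.1785 in limma. At an unadjusted p under 0.05, 11 segments were lower with tacrolimus and 0 higher, beside 15.8% of all genes tested lower and 1.6% higher. The 11 hold both Trav3d-3 and its copy Trav3n-3. After median-of-ratios scaling 9 segments were lower and 0 higher, and of all genes tested 755 were lower and 708 higher. The groups did not overlap, with vehicle higher, for 5 of the 30 tested segments, beside 10.2% of all genes tested, and with tacrolimus higher for none, beside 0.767%.

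All 30 had a lower mean log2 value with tacrolimus, with a median difference of -1.14 on the log2(FPKM + 1) scale. Over all genes tested 75.7% were lower, with a median of -0.19. Median-of-ratios scaling removed that general shift (6523 genes lower, 6509 higher), and the median of the 30 segments was then -1.06, with 30 lower. Most of the 30 passed the minimum through the vehicle libraries, so these values support nothing by themselves. Without the minimum and without that scaling, 96 of 112 segments were lower on the log2 scale and 16 higher, with a median of -0.46. Over all 28614 genes of that fit 17931 were lower and 10683 higher, with a median of -0.05. The 9 genes of the receptor complex and CD8 had a median of -1.93, with 9 of 9 lower at an unadjusted p under 0.05 and 0 passing adjustment. Among them Trac differed by -2.15 (SE 0.57, limma adjusted p 0.1933).

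The segments Trbv31, Trbv29, Trbv20 and Trav16 reached 1 FPKM in the 4 vehicle libraries and in no tacrolimus library, so they entered the test through the group in which they are high. Their differences are given as a description, with the adjusted p of the fit without a minimum on FPKM. Trbv31 was at 0 in all 4 tacrolimus libraries and at 3.45, 15.7, 40.4 and 1.84 FPKM in vehicle replicates 1 to 4. All vehicle libraries lay above all tacrolimus libraries, with a difference of -3.27 on that log2 scale (limma adjusted p 0.3866 without the minimum). Its share of summed Trbv FPKM in the vehicle libraries ran from 0.89% and 1.57% in replicates 1 and 4 to 17.9% and 29.8% in replicates 2 and 3, where it was the leading segment.

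A count of 0 allows up to 3 fragments, or 1.83%, 15.8%, 2.27% and 3.37% of the Trbv fragments of tacrolimus replicates 1 to 4. In the vehicle libraries Trbv31 took an estimated 0.833%, 13.9%, 26.6% and 1.55% of Trbv fragments. A share as in vehicle replicates 1 and 4 lay within the limit of every single tacrolimus library, so a count of 0 there does not exclude it. The shares in vehicle replicates 2 and 3 exceed the limits of tacrolimus replicates 1, 3 and 4. Over the 4 tacrolimus libraries together, 0 of 404 estimated Trbv fragments allows a share of up to 0.743%. The estimated Trbv31 share in each vehicle library is above this value. In vehicle replicates 1 and 4 that share rests on an estimated 7.5 and 3.8 fragments, and its own counting error was not taken into account. The limits cover counting error in the tacrolimus libraries only and not the spread between samples, which the pooled limit ignores. Trbv31 was named from these same values, so the comparison is a description.

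Trbv29 was at 0.58, 0, 0 and 0 FPKM with tacrolimus and 3.69, 7.31, 5.79 and 1.15 FPKM with vehicle (log2 difference -2.12, limma adjusted p 0.3863 without the minimum). Trbv20 was at 0.68, 0, 0 and 0 FPKM and at 1.84, 1.58, 2.72 and 2.02 FPKM (log2 difference -1.40, limma adjusted p 0.3863 without the minimum). For both, tacrolimus replicate 1 held about 1 fragment and the other tacrolimus libraries none. Vehicle replicates 1 to 4 held an estimated 6.7, 10.3, 9.7 and 1.9 fragments of Trbv29 and 2.8, 1.8, 3.8 and 2.8 of Trbv20. The vehicle libraries of Trbv20 lay close together, at 0.311% to 1.23% of Trbv fragments. Such shares lay within the limit that a count of 0 allows in each of tacrolimus replicates 2, 3 and 4. Trbv4 was at 1.37, 0, 1.40 and 0 FPKM and at 3.56, 14.8, 2.14 and 1.28 FPKM, so the groups overlapped (log2 difference -1.63).

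**Figure D3:**
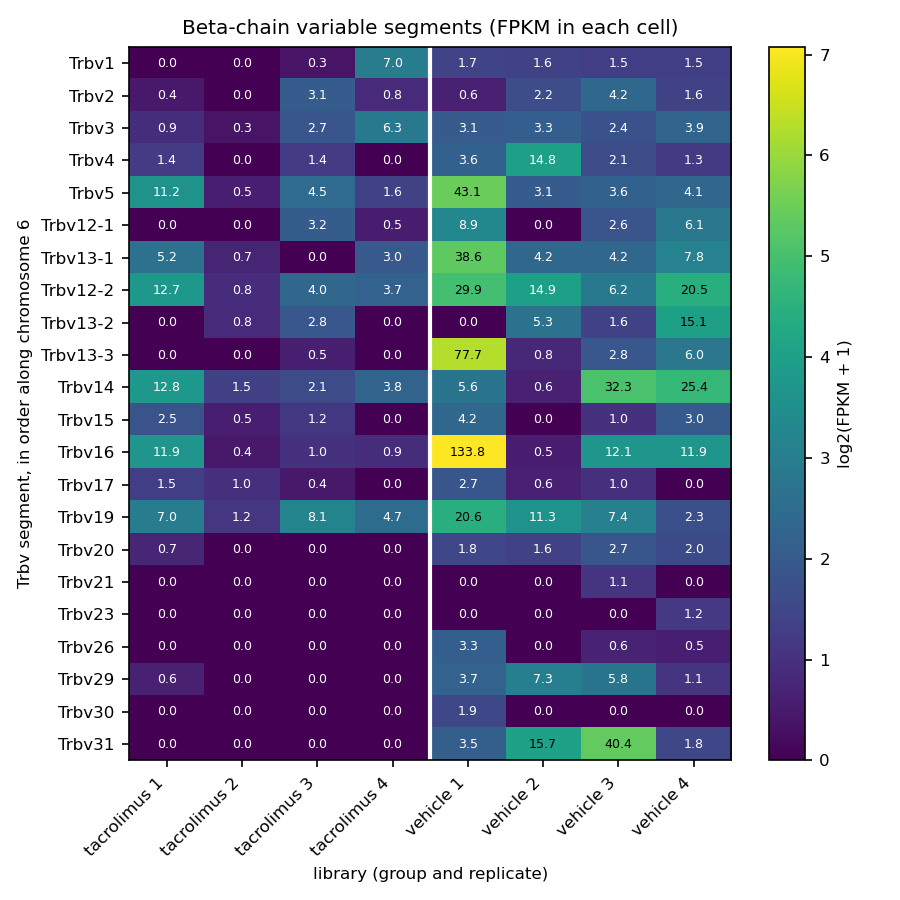
FPKM of the 22 Trbv segments in the 8 libraries, in order along chromosome 6, with color giving log2(FPKM + 1) and the FPKM printed in each cell. Trbv31, Trbv29 and Trbv20 are at or near 0 left of the white line, and Trbv16 and Trbv13-3 have their highest cells in vehicle replicate 1.

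Other beta segments with high means were high in 1 or a few vehicle libraries. Trbv16 reached 134 FPKM in vehicle replicate 1 but 0.45, 12.1 and 11.9 FPKM in vehicle replicates 2 to 4, and 11.9, 0.40, 1.02 and 0.91 FPKM with tacrolimus. Trbv13-3 was at 77.7 FPKM in vehicle replicate 1, at 0.75, 2.80 and 6.02 FPKM in the other vehicle libraries, and at 0, 0, 0.53 and 0 FPKM with tacrolimus. Trbv5 was at 43.1 FPKM in vehicle replicate 1, against 3.14, 3.56 and 4.07 FPKM in the others and 11.1, 0.50, 4.51 and 1.63 FPKM with tacrolimus. Without vehicle replicate 1 the vehicle means of Trbv16, Trbv13-3 and Trbv5 were 8.15, 3.19 and 3.59 FPKM. Of these 3 segments, Trbv13-3 alone did not overlap between the groups, and it reached 1 FPKM in too few libraries to be tested.

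Trbv14, Trbv19 and Trbv12-2 were detected in all 8 libraries and overlapped between the groups. Trbv14 was at 12.8, 1.51, 2.09 and 3.79 FPKM with tacrolimus and 5.64, 0.58, 32.3 and 25.4 FPKM with vehicle. Trbv12-2 was at 12.7, 0.85, 4.00 and 3.66 FPKM and at 29.9, 14.9, 6.20 and 20.5 FPKM. Trbv19 was at 7.05, 1.18, 8.09 and 4.70 FPKM and at 20.6, 11.3, 7.41 and 2.34 FPKM. As a share of summed Trbv FPKM, Trbv19 ran the other way, at 10.3%, 15.4%, 22.8% and 14.6% with tacrolimus and 5.31%, 12.9%, 5.46% and 1.99% with vehicle. The shares overlapped only through tacrolimus replicate 1 and vehicle replicate 2 (means 15.8 ± 5.20% and 6.42 ± 4.61%). Trbv1 was at 0, 0, 0.30 and 6.99 FPKM with tacrolimus and at 1.72, 1.64, 1.48 and 1.47 FPKM with vehicle, so its higher mean with tacrolimus rests on replicate 4.

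The concentration of beta use on few segments did not separate the groups. The leading segment held 18.6%, 19.7%, 22.8% and 21.7% of Trbv FPKM in tacrolimus replicates 1 to 4 and 34.5%, 17.9%, 29.8% and 21.7% in vehicle replicates 1 to 4. The means were 20.7 ± 1.88% and 26.0 ± 7.54% (SD, n = 4 each), with the widest spread among the vehicle libraries. The leading segments were Trbv14, Trbv14, Trbv19 and Trbv1 with tacrolimus and Trbv16, Trbv31, Trbv31 and Trbv14 with vehicle. Weighted by estimated fragments in place of FPKM, which gives long segments more weight, Trbv19 led in all 4 tacrolimus libraries and in vehicle replicate 2, and the mean leading shares were 29.0% and 27.9%.

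The effective number of segments is the inverse Simpson index, the number of equally used segments that would give the same concentration. For beta it was 6.95, 8.22, 8.58 and 6.85 with tacrolimus and 5.23, 8.12, 6.06 and 8.41 with vehicle. The groups overlapped (7.65 ± 0.88 and 6.96 ± 1.56, SD, n = 4 each). The sign of this difference depended on the weighting: by estimated fragments the means were 5.98 and 6.89.

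**Figure D4:**
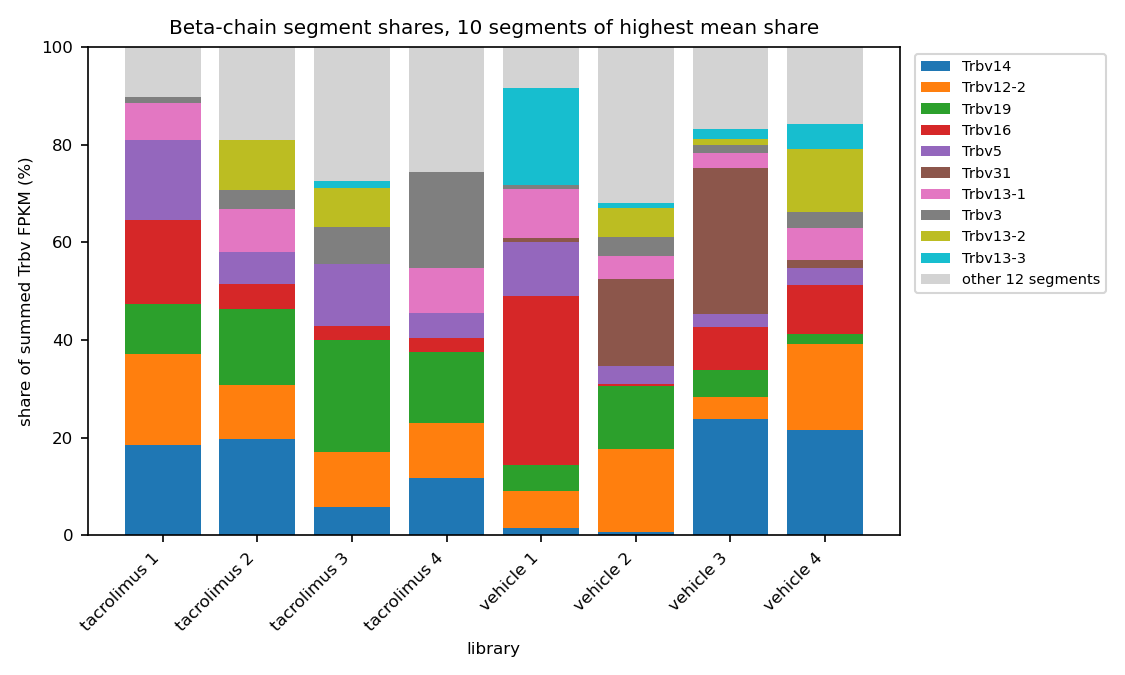
Share of summed Trbv FPKM (percent, vertical axis) held by the 10 segments of highest mean share in each of the 8 libraries, with the other 12 in gray. Trbv31 takes 17.9% and 29.8% in vehicle replicates 2 and 3, Trbv16 takes 34.5% in vehicle replicate 1, and Trbv19 takes 10.3% to 22.8% with tacrolimus.

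Among the alpha segments, the Trav14 subgroup had the highest mean share in both groups. The subgroup held 26.9 ± 14.4% of Trav FPKM with tacrolimus and 29.5 ± 19.1% with vehicle (SD, n = 4 each). Trav14n-3, of which the 3′ end is printed above, was at 4.71, 0, 0.44 and 0 FPKM with tacrolimus and 23.7, 21.4, 15.7 and 2.57 FPKM with vehicle. It overlapped only through tacrolimus replicate 1 and vehicle replicate 4 and differed by -2.99 on the log2 scale (SE 0.70, limma adjusted p 0.1786). Trav14d-3-dv8, a segment that can also join the delta chain, was at 0.90, 0.30, 0.25 and 3.15 FPKM and at 5.91, 3.25, 6.22 and 6.27 FPKM, with no overlap by a margin of 0.10 FPKM. It differed by -1.73 (SE 0.38, limma adjusted p 0.1786).

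Other Trav14 members overlapped between the groups. Trav14-2 was at 0, 0, 3.28 and 4.38 FPKM with tacrolimus and 2.45, 2.01, 11.6 and 3.31 FPKM with vehicle, and led alpha use in tacrolimus replicate 3. The identical copies Trav14d-2 and Trav14n-2 were each at 1.64, 0.29, 0.54 and 2.77 FPKM and at 0.95, 1.26, 2.31 and 1.15 FPKM, with the highest value in a tacrolimus library. Whether the Trav14 members differ from each other in their response was not tested.

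**Figure D5:**
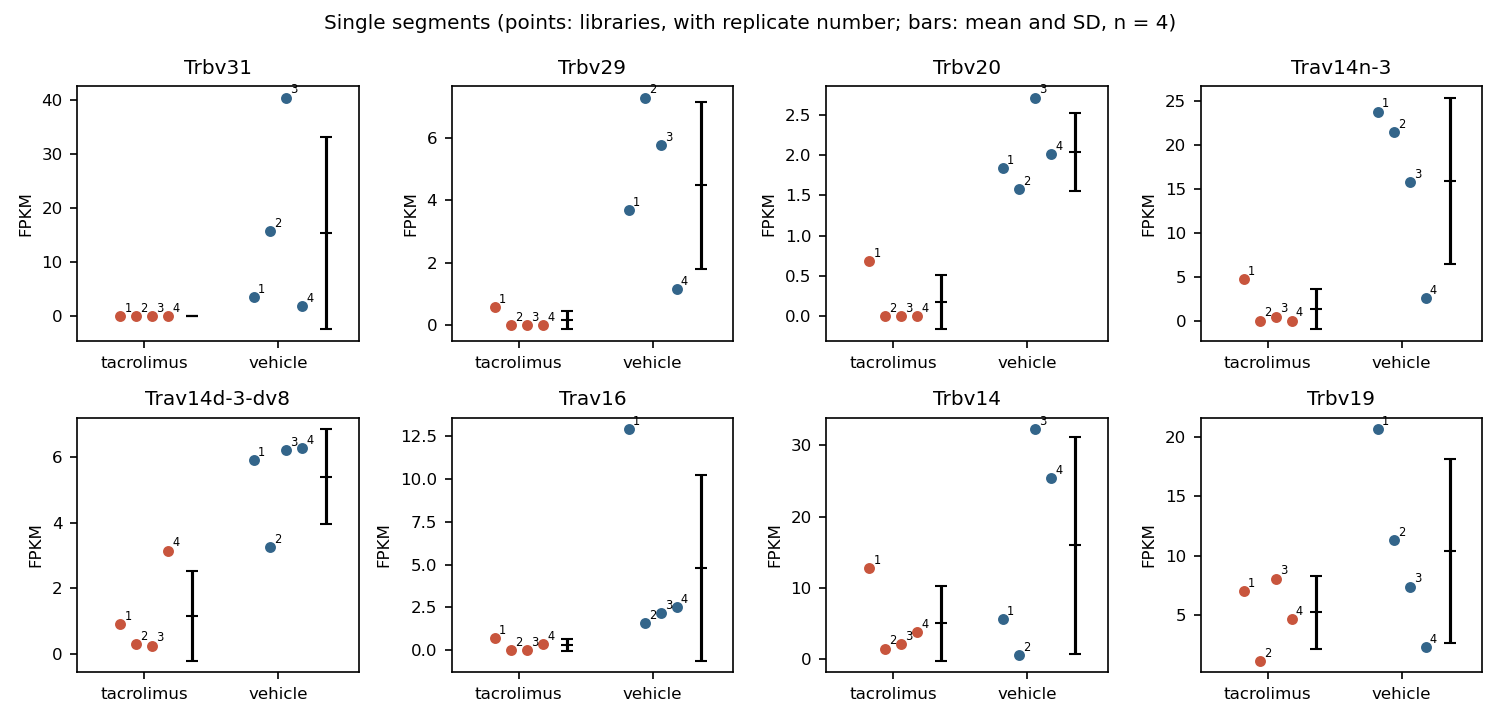
FPKM of 8 segments by library (points with replicate number; bars are mean and SD, n = 4), tacrolimus left and vehicle right in each panel, with a separate vertical axis for each. Trbv31, Trbv29, Trbv20, Trav14d-3-dv8 and Trav16 do not overlap between the groups, while Trav14n-3, Trbv14 and Trbv19 do.

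Trav16 was at 0.73, 0, 0 and 0.38 FPKM with tacrolimus and 12.9, 1.61, 2.17 and 2.52 FPKM with vehicle. The groups did not overlap (log2 difference -1.85, limma adjusted p 0.4008 without the minimum), and without vehicle replicate 1 the vehicle mean was 2.1 FPKM. The identical copies Trav3d-3 and Trav3n-3 were each at 1.92, 0, 0.33 and 0 FPKM and at 13.3, 1.54, 2.26 and 1.39 FPKM, with overlap (log2 difference -1.55). A set of 3 low alpha segments, too low to be tested, were detected in all 4 vehicle libraries and in no tacrolimus library. Trav14-3 was at 0.43, 1.11, 1.48 and 0.90 FPKM there, Trav3-3 at 2.38, 0.40, 2.35 and 1.09 FPKM and Trav4-3 at 0.36, 1.28, 1.91 and 0.38 FPKM. No segment showed the reverse. The share of all genes with either pattern was not counted. An estimated 16 to 125 Trav fragments per tacrolimus library and 90 to 533 per vehicle library were available, and a pool of fewer fragments shows fewer segments. A count of 0 in the tacrolimus libraries allows 1.21% of their 248 estimated Trav fragments, a limit that covers counting error only.

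Several alpha segments were high in a single library, and these were found in both groups. Trav13-1 was at 8.44 FPKM in tacrolimus replicate 1 and at 0.64 FPKM in vehicle replicate 1, and was at 0 in the other libraries. Trav12-1 reached 5.86 FPKM in tacrolimus replicate 4, beside 0 to 0.37 FPKM in the other tacrolimus libraries and 0 to 2.07 FPKM with vehicle. With vehicle, Trav8d-2 reached 25.8 FPKM in replicate 4 beside 1.21, 0 and 1.37 FPKM in replicates 1 to 3, and was at 0 with tacrolimus. Trav15-1-dv6-1 reached 26.2 FPKM in vehicle replicate 1 and 1.0 FPKM in vehicle replicate 4, and Trav16n 31.7 and 5.65 FPKM in the same libraries. Both were at 0 in vehicle replicates 2 and 3, and with tacrolimus only Trav15-1-dv6-1 was detected, at 0.21 FPKM in replicate 1.

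By FPKM the leading alpha segment was Trav13-1, the identical copies Trav6d-7 and Trav6n-7, Trav14-2 and Trav12-1 in tacrolimus replicates 1 to 4. In vehicle replicates 1 to 4 it was Trav16n, Trav14n-3, Trav14n-3 and Trav8d-2. The leading share was 12.5%, 16.9%, 26.9% and 14.8% with tacrolimus and 12.6%, 37.3%, 12.7% and 24.1% with vehicle. The weighting by estimated fragments also summed identical copies, which the FPKM shares did not. The leader was then Trav10 in tacrolimus replicate 1 and Trav6d-7 with its copy in tacrolimus replicate 4. In vehicle replicates 1 and 3 it was Trav12d-2 with its copy and Trav12-3, with no change in the other 4 libraries. The mean leading share was 17.8% with tacrolimus and 21.7% with vehicle by FPKM. By estimated fragments with copies summed it was 19.2% and 16.6%, so the sign of the difference turned. Whether the weighting or the summing of copies turned it was not tested. The effective number was 17.8, 10.4, 9.19 and 12.5 with tacrolimus and 16.7, 6.40, 19.7 and 12.7 with vehicle. By FPKM, the spread within a group exceeded the difference between the groups in both measures (effective number 12.5 ± 3.82 and 13.9 ± 5.74). This depended on the index. The exponential of Shannon entropy gave 16.9 ± 5.31 and 24.3 ± 6.36, a difference larger than either SD, though the groups overlapped. By estimated fragments with copies summed the effective number was 10.7 ± 4.23 and 14.8 ± 3.48, also with overlap.

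Distances between the share profiles of libraries overlapped within and between the groups. The Bray-Curtis distance is 0 for identical and 1 for disjoint profiles. For beta its median was 0.450 among tacrolimus libraries, 0.542 among vehicle libraries and 0.554 between the groups, with ranges of 0.336 to 0.493, 0.412 to 0.714 and 0.343 to 0.656. For alpha the medians were 0.690, 0.616 and 0.740. Alpha profiles, which rest on fewer fragments and more segments, were farther apart in all 3 kinds of pairs.

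Segments that mark other T cells were at or near 0. Trav11, the alpha segment of invariant natural killer T cells, was at 0 in all libraries, and its copy Trav11d was at 0.63 FPKM in tacrolimus replicate 1 alone. Trav1, the alpha segment of mucosal-associated invariant T cells, was at 0.53 FPKM in tacrolimus replicate 4 and 0.50 FPKM in vehicle replicate 3. All 70 J segments were listed at 0 in all libraries, Traj18 and Traj33 among them, so J use was not measured here. Of the 34 annotated V pseudogenes 4 were detected.

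Genes of the gamma and delta chains were low. The 14 V genes outside the Trav and Trbv symbols summed to 1.2 to 3.5 FPKM with tacrolimus and 0 to 12.4 FPKM with vehicle. Trdc, the delta constant segment, was at most 0.50 FPKM. Tcrg-C2, a gamma constant segment, was at 8.57, 1.43, 7.44 and 2.32 FPKM with tacrolimus and 30.6, 7.75, 13.1 and 14.1 FPKM with vehicle. The CD4 T cell list (Cd4, Foxp3, Cd40lg) summed to 0.73 to 0.90 FPKM and 1.5 to 3.96 FPKM. The 4 natural killer cell genes summed to 14.6 to 18.2 FPKM and 8.18 to 29.6 FPKM, of which Klrb1c was the most abundant in every library, and Ncr1 was at most 0.59 FPKM.

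Of 4 genes of receptor rearrangement and early T cell development, 3 were near 0. Rag1, a subunit of the recombinase that cuts the segments, was at 0 in all libraries, and Rag2, its partner, and Dntt, which adds bases at the joins, were at most 0.08 FPKM. Ptcra, the surrogate alpha chain of immature T cells, was at 1.22, 0.91, 3.23 and 2.34 FPKM with tacrolimus and 1.36, 0.99, 1.87 and 0.60 FPKM with vehicle. Its groups overlapped (log2 difference 0.37, SE 0.31, limma adjusted p 0.5267). The 7 B cell genes summed to 1.83 to 8.15 FPKM with tacrolimus and 8.68 to 27.8 FPKM with vehicle, mostly from Ighm, with Pax5 at most 0.19 FPKM. The immunoglobulin V genes, which are built from segments in the same way, summed to 3.11 to 10.1 FPKM and 2.11 to 71.4 FPKM, and 65 of 218 were detected. They overlapped between the groups, with vehicle replicate 2 the lowest of the 8 libraries.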

How the data were processed

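The authors deposited FPKM values, scaled to gene length and library size before deposit, 1 per Ensembl gene and library to 2 decimals. No header names the unit, which was inferred from the values. Per the submitters' processing notes, HISAT2 2.1.0, RSEM 1.3.1, DESeq2 1.24.0 and GRCm38.p6 were used, with no roles given. Symbols, coordinates and sequences came from GENCODE M21 by Ensembl identifier (346 identifiers without a match). Members, gene lists and tests were chosen with earlier results of these data known. Genes that reached 1 FPKM in 4 or more libraries were tested on log2(FPKM + 1) with limma 3.58.1 (eBayes with trend, R 4.3.3), two-sided, with Benjamini-Hochberg adjustment over 13032 genes at 0.05; the step was tested on simulated data. Fold changes on this scale understate low genes. Measures per library have no test.

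Depth came from low values of single-transcript genes of 330 to 1500 bases: 84.6% to 87.2% lay within 0.15 of a whole fragment (30% if evenly spread). Segment fragments are estimates, midway between those for the shortest and longest transcript where a segment has several; no count test was used. Named segments were, per chain, the 5 of highest mean, the leading ones, the 5 of smallest p in each direction, those detected in all libraries of 1 group alone, and Trav1, Trav11 and Trav11d. Others were named after their values were seen. No label gives a batch. Python 3.11.15 was used for the measures and matplotlib 3.10.9 for the plots. Alternatives were other pseudocounts, filters, scalings, weightings, a replicate block and each library left out.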

Additional observations from a re-analysis of the deposited data

Results flagged for a closer look

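Single libraries stood apart from the other 3 of their group in 25 of 78 groups of 4 examined. The mark was a gap to the nearest library above Dixon's 95% critical value. Of the 25 flags 24 fell on named segments, and some of these were named because they led in 1 library. The rate of about 1 in 20 by chance is therefore no measure for this count. Groups with 3 values at 0 are flagged by construction, and the identical copies Trav3d-3 and Trav3n-3 are each counted. Vehicle replicate 1 accounted for 9 of the 25 flags. It was the highest for summed Trbv (388 FPKM), Trbv16 (134), Trbv13-3 (77.7), Trbv5 (43.1), Trav15-1-dv6-1 (26.2), Trav3d-3 and Trav3n-3 (13.3 each), Trav16 (12.9) and Trav13-1 (0.64). Among the other vehicle libraries, replicate 2 was the highest for Trbv4 (14.8) and the lowest for Trav14d-3-dv8 (3.25). Vehicle replicate 3 was the highest for Trav14-2 (11.6) and Trav1 (0.50), and vehicle replicate 4 for Trav8d-2 (25.8).

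In the tacrolimus group, replicate 1 was the highest for Trbv16 (11.9 FPKM), Trav13-1 (8.44), Trav14n-3 (4.71), Trbv20 (0.68), Trav11d (0.63), Trbv29 (0.58) and Trav15-1-dv6-1 (0.21). Tacrolimus replicate 3 was the highest for Trbv13-3 (0.53), and tacrolimus replicate 4 for Trbv1 (6.99), Trav12-1 (5.86) and Trav1 (0.53).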

How the results depend on the processing

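No segment and no gene passed adjustment with other pseudocounts, filters or scalings. With each library left out, 0 to 1 genes (1 without vehicle replicate 1) and 0 segments did; without a vehicle library only 19 to 23 of the 30 segments reached the minimum, and Trbv31, Trbv29, Trbv20 and Trav16 were then not tested. The sample titles number the replicates and name no pairing. Deviations of same-numbered libraries correlated at 0.215, 0.277, -0.02 and -0.02, and those of differently numbered libraries at -0.324 to 0.155. The values of replicates 1 and 2 were the highest of all pairs, so these correlations do not settle whether the samples were paired. A replicate block called 121 genes and 2 segments, Trav14n-3 (limma adjusted p 0.0451) and Trbv13-1 (0.0437). Segments lower at an unadjusted p under 0.05 in limma numbered 23 of 112 without the filter, and 2 were higher. In that fit 2537 of 28614 genes were lower and 426 higher. With a library left out 7 to 13 segments were lower and 0 higher. Of the 12759 to 12858 genes tested then, 1308 to 2465 were lower and 134 to 285 higher. Where single segments were tested, 308 values kept direction and side of the threshold. Trav14d-2 and Trav14n-2 (-0.45 to 0.070 with a library left out) reversed without tacrolimus replicate 2, and Trav6d-7 and Trav6n-7 (-0.40 to 0.072) without tacrolimus replicate 3 (0.022) or vehicle replicate 3; the cause was not tested.

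Differences are tacrolimus minus vehicle. Alpha segments detected differed by -23.2 (-28.8 to -19.8 with a library left out), by -5.00 with subgroups merged, and by -0.62 (17 fragments; -0.67 without tacrolimus replicate 2) or -1.26 (30 fragments, 7 libraries) at equal fragments. Beta segments detected differed by -6.75 (-7.58 to -6.17), by -9.25 at 1 FPKM or more, and by -0.25 (19 fragments; -0.89 without tacrolimus replicate 2) or -3.16 (91 fragments, 7 libraries) at equal fragments. The alpha effective number differed by -1.41 (-3.91 to 0.52), by -7.42 by Shannon entropy and by -4.19 by estimated fragments with copies summed. The beta effective number differed by 0.69 (0.12 to 1.18), by -0.86 by Shannon entropy and by -0.91 by estimated fragments. The leading share differed for alpha by -3.90 points (-6.94 to 1.33) and by 2.51 by estimated fragments with identical copies summed. For beta it differed by -5.26 (-7.94 to -2.42) and by 1.07 by estimated fragments. Log2 sums ranged with a library left out from -2.91 to -1.88 for alpha and -2.89 to -1.83 for beta; relative to constant segments they were -0.12 and -0.41. Draws at equal fragments and weighting by fragments were chosen after seeing the data. Depth limits all counts of segments, since 16 to 125 Trav and 19 to 164 Trbv fragments were estimated per tacrolimus library.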
